A study of Homo sapiens with 5 samples.

Results

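The genes of the MCM helicase and its activators were examined in IMR-90, a line of diploid fibroblasts from normal human lung that is not immortal, after siRNA knockdown of the histone methyltransferase NSD2. They are 9 of the 26364 genes listed in the deposited table of normalized counts, chosen by symbol: MCM2, MCM3, MCM4, MCM5, MCM6, MCM7, MCM8, MCM10 and CDC45. The 5 libraries were poly(A) mRNA-seq of cells taken 24 hr after transfection. Of these, 2 came from Ctr-KD cells, which received a control siRNA, and 3 from NSD2-KD cells, each of which received 1 of 3 siRNAs against NSD2 (NSD2-1, NSD2-2 and NSD2-3). Each NSD2 siRNA has 1 library, so that an siRNA and a replicate cannot be told apart, and every library is of the same cell line.

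The proteins of MCM2 to MCM7 form a ring of 6 subunits that is loaded onto replication origins as a double hexamer during G1 phase, which licenses those origins for S phase. The ring is inactive until CDC45 and the GINS complex join it, and the resulting CMG complex (CDC45, MCM and GINS) is the helicase that unwinds DNA ahead of the polymerases. MCM10 helps to activate CMG, and MCM8 works with MCM9 in homologous recombination and not in origin licensing. In cycling fibroblasts these genes are switched on toward S phase by E2F transcription factors and kept low by RB family proteins in cells that have left the cycle.

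The libraries held between 2473691 and 2845063 reads on genes. One read was worth about 1 normalized count, and 3 reads, taken as the floor, corresponded to between 2.76 and 3.28 normalized counts. All 9 genes were above the floor in every library, from 11 reads (MCM10 with NSD2-2) to 457 reads (MCM7 in a Ctr-KD library). The knockdown was checked on NSD2, which is listed under its older symbol WHSC1. It had 463 and 443 normalized counts in the Ctr-KD libraries, and NSD2-1, NSD2-2 and NSD2-3 left 19.9%, 18.1% and 19.4% of the Ctr-KD mean (-2.37 on the log2 scale, limma adjusted p = 0.000464). The 10 fibroblast markers, among them COL1A1, COL1A2, VIM and DCN, were above 3 reads in every library, whereas the epithelial markers EPCAM, CDH1, KRT5 and SFTPC, the endothelial markers PECAM1, CDH5 and KDR, and the 4 blood cell markers were at or under 3 reads in every library. The lowest of the fibroblast markers was S100A4, with between 6.17 and 8.79 normalized counts. Of the epithelial list KRT8 and KRT18 were above the floor of 3 reads, and its summed level was 159 in both Ctr-KD libraries and between 149 and 263 in NSD2-KD cells. Of the endothelial list VWF alone passed the floor, at up to 5.52 normalized counts. The pair of Ctr-KD libraries were nearly as close as counting error allows, with a chi-square statistic of 1.05 for each degree of freedom (12373 genes), while every other pair of libraries gave between 3.87 and 5.29. The sources call the Ctr-KD libraries biological replicates, and p-values rest on this small spread and on that between the 3 siRNAs.

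Transcripts of all 9 genes were lower in each of the 3 NSD2-KD libraries than in either Ctr-KD library, where 13.9% of the 11313 genes tested showed this order. The NSD2-KD mean was between 38.9% (MCM10) and 58.2% (MCM8) of the Ctr-KD mean, and for the 6 subunits of the ring it was between 42.5% and 52.7%. These normalized counts are reads divided by 1 scale factor per library. In a bulk library, fewer cells in the phase that expresses a gene and less RNA of that gene in each cell cannot be told apart.

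Among the ring subunits, MCM7 had the highest counts. It lies on chromosome 7 (99689856 to 99699563, minus strand, 15 exons, all positions on GRCh37) and had 435 and 422 normalized counts in the Ctr-KD libraries and 184, 144 and 254 with NSD2-1, NSD2-2 and NSD2-3. MCM4 (chromosome 8, 48872745 to 48890720, plus strand), which with MCM6 and MCM7 forms a subassembly that has helicase activity on its own, had 264 and 260.3 normalized counts against 127, 91.8 and 153. For both genes the highest NSD2-KD library, NSD2-3, lay far below the lower Ctr-KD library. MCM6 (chromosome 2, 136597196 to 136634013, minus strand) had 165 and 167 normalized counts in the Ctr-KD libraries and 66.3, 60.1 and 84.9 with NSD2-1, NSD2-2 and NSD2-3. Its mean was 166 ± 1.31 (SD, n = 2) without and 70.4 ± 12.9 (SD, n = 3) with NSD2 siRNA, the lowest share of the Ctr-KD mean in the ring.

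MCM5 and MCM2 flank the gate through which the ring opens around DNA, and MCM3 contacts the loading factor ORC-CDC6. MCM5 (chromosome 22, 35796127 to 35821424, plus strand) had 199 and 209.9 normalized counts in the Ctr-KD libraries and 91.1, 78.6 and 103 with the 3 siRNAs, the narrowest spread between siRNAs in the ring relative to its mean. MCM3 (chromosome 6, 52128812 to 52149679, minus strand) had 141 and 151 normalized counts against 82.8, 52.4 and 68.3. MCM2 (chromosome 3, 127317253 to 127341279, plus strand), whose protein also binds histones H3 and H4, had 111 and 138 in the Ctr-KD libraries and 87.4, 38.2 and 71.3 in NSD2-KD cells. MCM2 thus had the widest relative spread of the ring in both groups. With NSD2-1 it was 70.1% of the Ctr-KD mean, the highest value of any ring subunit with any siRNA. An annotated long noncoding RNA on the other strand shares 1113 of the 3434 bases of the MCM2 transcript, and the strand setting of the counting is not given in the sources used here, so reads of the 2 could not be separated.

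Outside the ring, the counts were lower. CDC45 (chromosome 22, 19466980 to 19508135, plus strand), which joins the ring at activation, had 41.9 and 34.0 normalized counts in the Ctr-KD libraries and 20.2, 14.2 and 20.5 with NSD2-1, NSD2-2 and NSD2-3. MCM10 (chromosome 10, 13203558 to 13253110, plus strand) had 49.5 and 34.0 against 23.0, 12.0 and 13.7, which rests on 25, 11 and 14 reads in the NSD2-KD libraries. For both genes the groups did not overlap, although the Ctr-KD libraries themselves differed by up to 1.46-fold (MCM10). MCM8 (chromosome 20, 5931298 to 5979623, plus strand), the recombination helicase, had 70.5 and 54.5 normalized counts in Ctr-KD cells and 39.6, 20.8 and 48.8 in NSD2-KD cells. Its NSD2-3 library came within 5.72 normalized counts of the lower Ctr-KD library, the smallest gap of the 9 genes. Exons of another annotated coding gene on the same strand cover 2510 of the 7486 bases of the MCM8 transcript, and its count is uncertain for that reason.

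**Figure D1:**
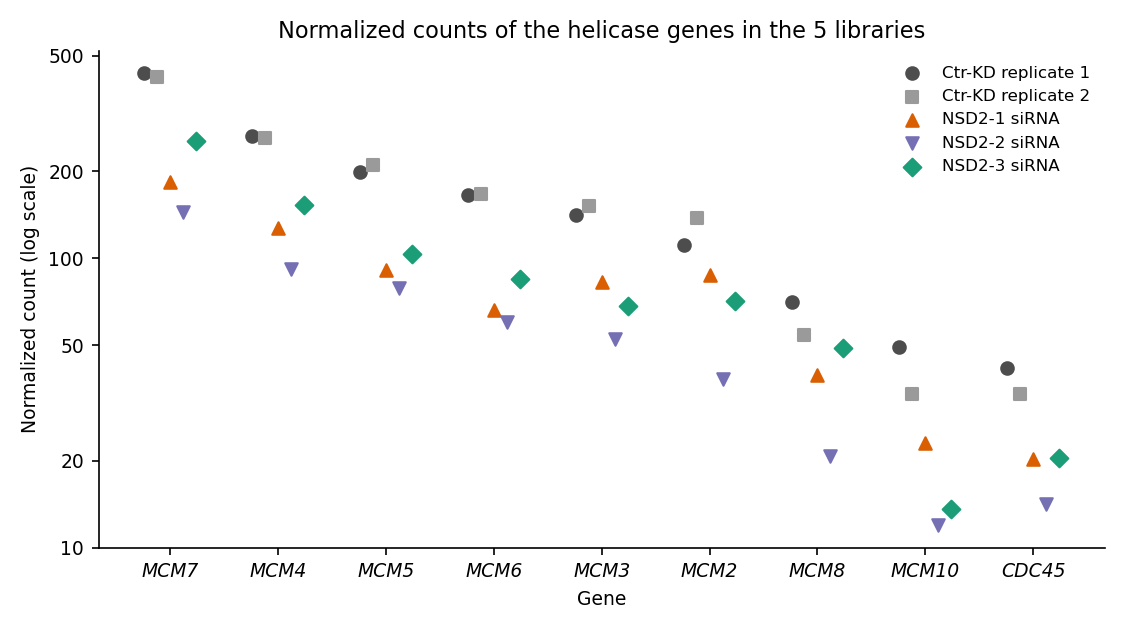
Normalized counts (vertical axis, log scale) of the 9 genes in each of the 5 libraries, with genes ordered by their Ctr-KD mean. Every NSD2-KD point lies below both Ctr-KD points of its gene, and the NSD2-2 point is the lowest for all 9 genes.

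Whether these differences exceed the spread between libraries was tested with limma on log2(normalized count + 1), with a trend of the variance on the mean. The test ran over the 11313 genes whose normalized counts averaged 10 or more, and p-values were adjusted over all of them by the Benjamini-Hochberg method. By this test 0 of the 9 genes passed an adjusted p of 0.05, where 0.053% of all tested genes were called lower. All 9 had an unadjusted p under 0.05 and were lower, against 4.99% of all tested genes. The log2 differences ran from -0.84 for MCM8 to -1.34 for MCM10 with a median of -1.12, and the median over all tested genes was -0.0089. MCM5 came nearest to the threshold (log2 difference of -1.17, standard error 0.16, adjusted p = 0.0615 from limma), followed by MCM6 (-1.24, standard error 0.18, adjusted p = 0.079). For MCM7 the log2 difference was -1.18 (standard error 0.21), for MCM3 -1.12 (0.21) and for MCM4 -1.10 (0.21), with adjusted p between 0.164 and 0.172 from limma. MCM2 (-0.99, standard error 0.32), CDC45 (-1.02, 0.27), MCM10 (-1.34, 0.33) and MCM8 (-0.84, 0.34) had the larger errors and adjusted p between 0.267 and 0.51 from limma. With 2 and 3 libraries the smallest two-sided p of an exact permutation test is 0.1, so it was not used for single genes.

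Tests on the reads, which were recovered in full from the normalized counts, called more of the ring. DESeq2 called 5 of the 9 genes lower at an adjusted p under 0.05 (0.389% of all tested genes): MCM5 (log2 difference of -1.17, adjusted p = 0.000281), MCM6 (-1.24, 0.000616), MCM7 (-1.14, 0.00201), MCM4 (-1.08, 0.00591) and MCM3 (-1.10, 0.0127). MCM2 and MCM8 were not called by DESeq2 (adjusted p = 0.343 and 0.934), and its filter on low counts left MCM10 and CDC45 without an adjusted p. The quasi-likelihood test of edgeR called MCM5 (adjusted p = 0.0364) and MCM6 (0.0481), where 0.0972% of tested genes were called lower. Voom weights in limma left MCM5 alone (adjusted p = 0.0427, 0.0619% of genes called lower). When the NSD2-3 library was left out, limma called 4 of the 9 genes: MCM7 (log2 difference of -1.39, adjusted p = 0.0203), MCM6 (-1.38, 0.0345), MCM5 (-1.26, 0.0356) and MCM4 (-1.27, 0.0407), with 0.195% of 11305 genes called lower. Without NSD2-1 limma called 0 of the 9 genes, where 10 of 11316 genes were called lower. Without NSD2-2 it also called 0 of the 9, where 4 of 11317 genes were called lower. In each fit above that called any of the 9, the genes called were subunits of the ring. The members with the fewest reads were not among them.

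Set side by side, the siRNAs left different amounts of the helicase transcripts. Each siRNA has 1 library, so these values carry no test, and their exact 95% intervals cover counting error only. With NSD2-2 the 9 genes were between 28.8% (MCM10) and 38.5% (MCM5) of the Ctr-KD mean, with a median of 35.0%, and NSD2-2 was the lowest library for 9 of 9 genes. The share of all tested genes that were lowest with NSD2-2 was not computed. With NSD2-1 they were between 40.0% (MCM6) and 70.1% (MCM2), with a median of 53.4%, and with NSD2-3 between 32.7% (MCM10) and 78.1% (MCM8), with a median of 54.0%. The SD of the log2 differences of the 9 genes from the Ctr-KD mean was 0.12 with NSD2-2, 0.27 with NSD2-1 and 0.31 with NSD2-3. These SDs include counting error, and both extremes with NSD2-3, MCM10 and MCM8, are genes with few reads. The ring subunits alone were between 30.7% and 38.5% with NSD2-2, and between 46.8% and 59.2% with NSD2-3. With NSD2-1 they were between 40.0% and 70.1%. Of the 27 intervals, 26 lay wholly below 100%, and that of MCM8 with NSD2-3 ran from 54.9% to 109%. The share of such intervals over all tested genes was not computed.

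The order of NSD2-1 and NSD2-3 depended on the gene. MCM7 was at 42.9% (36.6% to 50.1%) with NSD2-1 and at 59.2% (51.3% to 68.1%) with NSD2-3, and it was the only 1 of the 9 genes whose ratio between these libraries had an interval that left out 1. MCM4, MCM5 and MCM6 were likewise lower with NSD2-1 than with NSD2-3, whereas MCM2, MCM3 and MCM10 had their highest NSD2-KD value with NSD2-1. NSD2-2 was lower than NSD2-1 beyond counting error for 5 genes (MCM2, MCM3, MCM4, MCM7 and MCM8) and lower than NSD2-3 for 4 (MCM2, MCM4, MCM7 and MCM8). Such differences were not particular to these genes. Over all genes, pairs of NSD2-KD libraries gave chi-square statistics between 5.05 and 5.29 for each degree of freedom. The share of all genes with such a ratio was not computed. The largest ratio was that of MCM8, which with NSD2-2 had 0.425 times its level with NSD2-3. Between the Ctr-KD libraries no member had an interval that left out 1 (0 of 9), and over all genes their chi-square statistic was 1.05. The level of NSD2 itself, between 18.1% and 19.9%, varied less between siRNAs than that of any of the 9 genes.

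**Figure D2:**
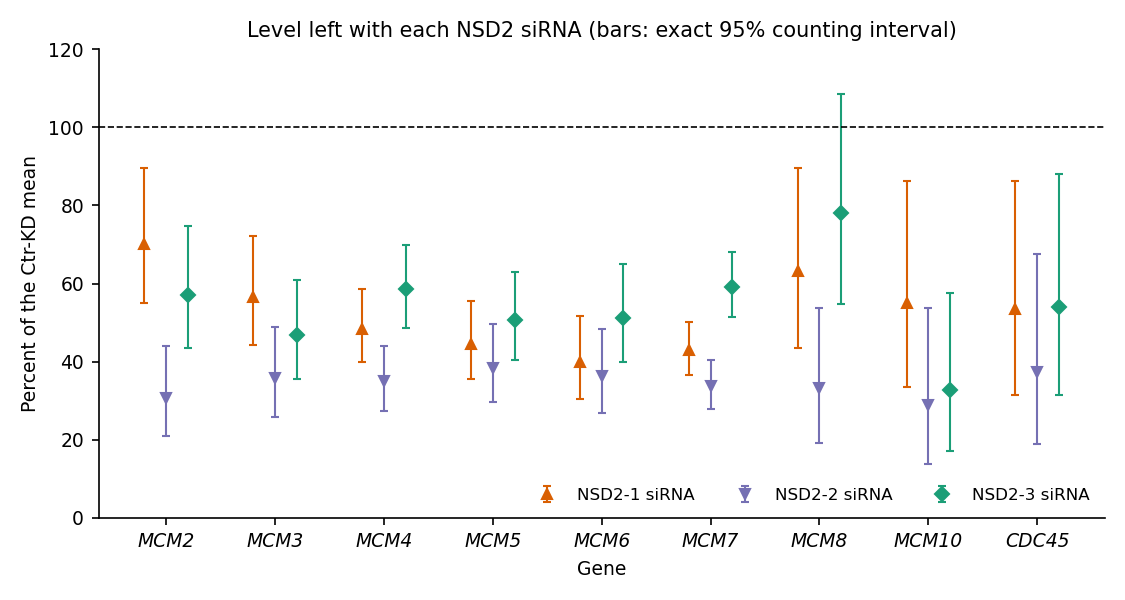
Percent of the Ctr-KD mean (vertical axis) left of each gene with each NSD2 siRNA, with exact 95% intervals for counting error as bars and the Ctr-KD mean as a dashed line at 100%. NSD2-2 is lowest throughout, and the intervals widen for MCM8, MCM10 and CDC45, which have the fewest reads.

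To compare levels between genes, normalized counts were divided by the length of the MANE Select transcript of each gene. On this scale MCM7 had 174 ± 3.89 (SD, n = 2) normalized counts per kilobase in Ctr-KD cells, against 64.5 ± 0.63 for MCM4, 59.1 ± 2.20 for MCM5, 47.6 ± 2.36 for MCM3, 44.2 ± 0.35 for MCM6 and 36.3 ± 5.44 for MCM2. The ring subunits are present once each in the ring, yet their transcripts were not equal, and MCM7 alone made up 40.8% ± 1.47 (SD, n = 2) of the per-kilobase sum of the 6. CDC45 (20.2 ± 3.00), MCM10 (9.18 ± 2.42) and MCM8 (8.35 ± 1.51) followed. In Ctr-KD cells neighbours in this order did not overlap between libraries, except MCM10 and MCM8. In NSD2-KD cells, taken in the same order, MCM4 and MCM5, MCM5 and MCM3, MCM3 and MCM6, MCM6 and MCM2, and MCM10 and MCM8 overlapped, whereas MCM7 and MCM4, MCM2 and CDC45, and CDC45 and MCM10 did not. With the length of all annotated exons in place of 1 transcript, MCM7 remained highest, whereas MCM4 moved from rank 2 to rank 5 and MCM6 from rank 5 to rank 3 in Ctr-KD cells, so the order in the middle depends on the length used.

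The makeup of the ring transcripts was similar in both groups. The per-kilobase sum of the 6 subunits was 425 ± 5.83 (SD, n = 2) in the control cells. After NSD2 knockdown it was 195 ± 44.5 (SD, n = 3), which is 45.9%, with 47.5%, 34.8% and 55.5% for NSD2-1, NSD2-2 and NSD2-3. Within that sum the share of MCM7 was 40.0% ± 3.37 (SD, n = 3) in NSD2-KD cells, of MCM4 15.6% ± 0.37, of MCM5 13.7% ± 1.47, of MCM3 11.4% ± 1.96, of MCM6 9.71% ± 1.05 and of MCM2 9.63% ± 2.63. For all 6 subunits the range of shares in NSD2-KD cells overlapped that in Ctr-KD cells. A wide range between siRNAs makes such overlap likely, and differences in share were not tested. The shares varied more between siRNAs than between the Ctr-KD libraries, in percentage points most for MCM7 (36.9% to 43.6%) and MCM2 (7.52% to 12.6%). Relative to their mean share, MCM2 and MCM3 varied more than MCM7.

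**Figure D3:**
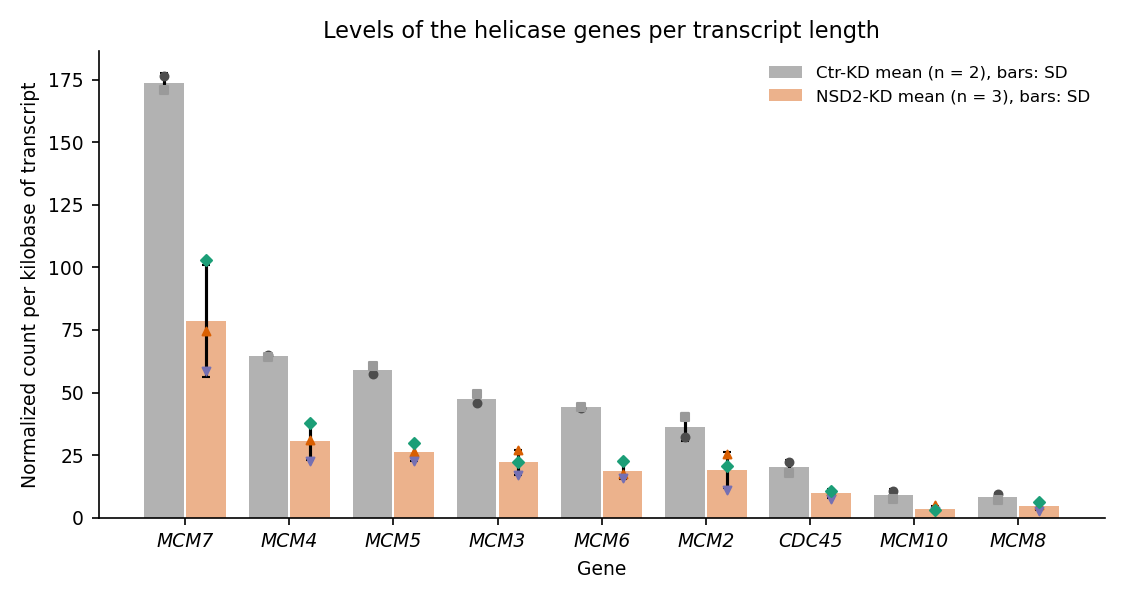
Normalized counts per kilobase of transcript (vertical axis) of the 9 genes, as the mean of Ctr-KD (n = 2, grey) and NSD2-KD cells (n = 3, orange) with SD as error bars and each library as a point (circle and square for the Ctr-KD replicates, upward triangle, downward triangle and diamond for NSD2-1, NSD2-2 and NSD2-3). MCM7 stands above the other subunits in both groups.

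Since these genes shared a direction, their promoters were searched for motifs known from cell cycle genes. RefSeq windows, from 250 bases before to 50 after an annotated start, were at hand for 7 of the 9 genes, in 11 windows. No window was at hand for the ring subunits MCM4 and MCM5, so these were not searched. The E2F motif was sought as TTTGGCGC, TTTCCCGC, TTTCGCGC or TTTGCCGC on both strands, where a palindromic site counts on each strand and its matches overlap. It was found for 5 of the 7 genes (MCM2, MCM3, MCM6, MCM7 and MCM8), whereas 3.99% of 27305 genes had it in at least 1 window. MCM6 had the most, with overlapping pairs of matches at -152 and -148 and at -90 and -86 (first base, counted from the start). In MCM2 an overlapping pair began 3 and 7 bases into the transcript, in MCM3 matches began at -174 and -4, in MCM7 at -187 and -9, and in MCM8 at 27. The 4 windows below are those of the ring subunits that held a match, and they are shown because these 4 genes had lower counts with each siRNA. Letters in capitals mark the E2F matches. On GRCh37, the build of the files, the RefSeq windows (table on GRCh38.p14) matched exactly, that of MCM6 at chr2:136633964-136634263 (minus strand), that of MCM2 at chr3:127317004-127317303 (plus), that of MCM3 at chr6:52149491-52149790 (minus) and that of MCM7 at chr7:99698971-99699270 (minus).
MCM6: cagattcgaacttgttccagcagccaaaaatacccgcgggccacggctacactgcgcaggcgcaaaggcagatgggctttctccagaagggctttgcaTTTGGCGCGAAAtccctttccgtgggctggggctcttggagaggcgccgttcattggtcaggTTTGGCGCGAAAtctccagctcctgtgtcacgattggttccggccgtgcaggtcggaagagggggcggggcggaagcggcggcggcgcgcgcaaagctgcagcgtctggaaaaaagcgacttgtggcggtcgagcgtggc
MCM2: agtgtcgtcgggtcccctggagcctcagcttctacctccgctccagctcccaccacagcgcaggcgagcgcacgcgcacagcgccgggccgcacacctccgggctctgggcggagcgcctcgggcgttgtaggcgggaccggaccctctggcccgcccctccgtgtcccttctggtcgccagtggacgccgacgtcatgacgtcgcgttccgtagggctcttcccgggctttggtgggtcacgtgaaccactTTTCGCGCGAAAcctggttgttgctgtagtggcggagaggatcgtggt
MCM3: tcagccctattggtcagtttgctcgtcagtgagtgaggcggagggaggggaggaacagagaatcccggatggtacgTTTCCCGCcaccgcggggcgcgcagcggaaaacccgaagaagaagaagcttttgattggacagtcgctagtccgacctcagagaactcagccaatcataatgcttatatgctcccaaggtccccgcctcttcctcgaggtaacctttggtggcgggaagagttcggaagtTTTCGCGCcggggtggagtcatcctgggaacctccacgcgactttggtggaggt
MCM7: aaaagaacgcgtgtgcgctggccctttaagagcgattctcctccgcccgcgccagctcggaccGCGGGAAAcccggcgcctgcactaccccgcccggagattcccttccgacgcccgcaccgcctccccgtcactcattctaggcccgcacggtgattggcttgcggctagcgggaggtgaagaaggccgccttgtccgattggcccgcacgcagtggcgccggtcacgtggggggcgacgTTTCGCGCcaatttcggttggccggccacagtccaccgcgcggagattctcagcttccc

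The CCAAT box (CCAAT, both strands), bound by the factor NF-Y, was found for 6 of the 7 genes, all but MCM2, against 39.7% of all genes. A CDC45 window held the most, with boxes at -112, -102, -64 and -44. Among the other genes, MCM3 and the first MCM7 window held 3 each, among them 1 in MCM7 that overlapped an E2F match. The cell cycle genes homology region (CHR, sought as TTTGAA or TTCGAA on both strands), a motif of genes expressed in G2 and M phase, was found for 1 of the 7 genes, MCM6, against 19.5% of all genes. Of the genes with a match to the E2F letters in these windows, MCM6 was at 42.5% of the Ctr-KD mean, MCM7 at 45.3%, MCM3 at 46.4%, MCM2 at 52.7% and MCM8 at 58.2%. CDC45 and MCM10, with no match to the forms sought, were at 48.3% and 38.9%. Other forms of the E2F motif were not sought. The letters TTTGGCGG, which differ from 1 of the forms sought in the last base only, stand in a CDC45 window and in the MCM10 window. These genes can therefore not be taken as genes without an E2F motif. A match is a run of letters and not a measured binding site, and binding of E2F or RB proteins was not analysed here.

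**Figure D4:**
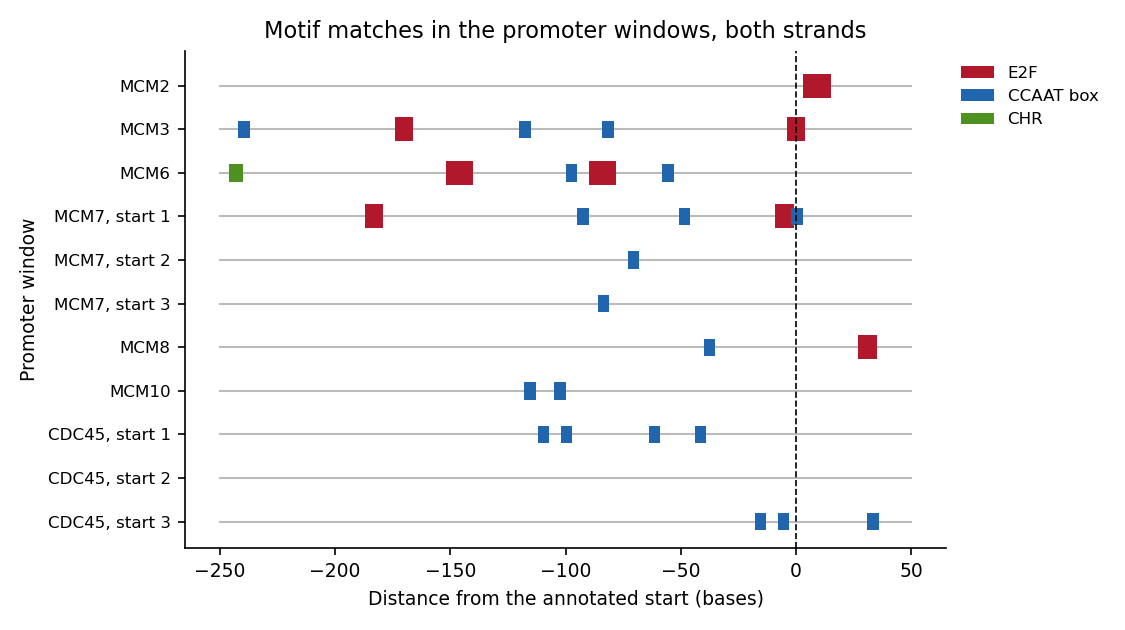
Positions of motif matches (horizontal axis, bases from the annotated start, dashed line) in the 11 promoter windows of 7 genes, with E2F matches in red, CCAAT boxes in blue and CHR matches in green. E2F matches are seen in 5 windows, and the CHR match in MCM6 alone.

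The partners with which the helicase works were taken as a list of 33 genes, of which 29 had enough counts to be tested. Of these, 27 were lower and 2 higher in NSD2-KD cells, with a median log2 difference of -0.96. Of all 11313 tested genes, 5822 were lower. In limma 0 passed an adjusted p of 0.05, and 21 were lower at an unadjusted p under 0.05 (4.99% of all tested genes). DESeq2 called 1 lower, CLSPN (0.389% of all tested genes), and edgeR called 0 (0.0972%). The DESeq2 filter on low counts left ORC1, CDC7, GINS3, TIPIN and MCM9 without an adjusted p. In 24 of the 29 genes all NSD2-KD libraries were below both Ctr-KD libraries (13.9% of all tested genes).

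Of the 9 loading factors 7 were lower and 2 higher, and 6 had all NSD2-KD libraries below both Ctr-KD libraries (13.9% of all tested genes). ORC1, the regulated subunit of the origin recognition complex, had 31.4 and 22.6 normalized counts in the Ctr-KD libraries and 8.28, 4.37 and 12.7 with the 3 siRNAs, -1.65 on the log2 scale (limma adjusted p = 0.267). CDT1, which brings the ring to the origin, had 62.9 and 61.7 against 20.2, 14.2 and 37.1. CDC6, the loader ATPase, was at 47.7% of the Ctr-KD mean, GMNN, the inhibitor of CDT1, at 55.1% and ORC6 at 51.2%. The other subunits of the complex were nearer to the Ctr-KD level, with ORC2 at 99.0%, ORC3 at 104%, ORC4 at 115% and ORC5 at 88.5%, and of these ORC5 alone had every NSD2-KD library below both Ctr-KD libraries. ORC2 had the smallest difference of the list (log2 difference of -0.0011, standard error 0.22). The difference between these genes and ORC1 was not tested.

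Among the firing factors 7 of 7 tested genes were lower in every NSD2-KD library than in both Ctr-KD libraries (13.9% of all tested genes), with a median log2 difference of -1.13. DBF4B, a paralog of the activator of the CDC7 kinase that phosphorylates the ring, had the lowest value (-1.35, adjusted p = 0.241 from limma), and TOPBP1, a scaffold for CMG assembly, the one nearest to 0 (-0.80, adjusted p = 0.267). The 4 GINS genes, whose products complete CMG, lay between -0.82 (GINS4) and -1.06 (GINS1), close to CDC45 at -1.02. Of the fork partners CLSPN, a mediator of the replication checkpoint, was at 35.9% of the Ctr-KD mean, and DESeq2 gave it an adjusted p of 0.00937. TIPIN, the partner of TIMELESS, had the smallest difference of that group (-0.61, standard error 0.62) and the groups overlapped.

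Of 5 further genes that carry an MCM name, bind MCM proteins or encode another helicase, 3 had enough counts to be tested, with a median log2 difference of -0.22. Their contrast with the 9 helicase genes was not tested. MCM9, the partner of MCM8, had 19.1 and 21.6 normalized counts in the Ctr-KD libraries and 26.7, 10.9 and 17.6 with NSD2-1, NSD2-2 and NSD2-3, so that the groups overlapped (log2 difference of -0.22, standard error 0.37). MCM3AP, an mRNA export factor that is named for its binding to MCM3, was at 88.4% of the Ctr-KD mean (log2 difference of -0.18). MCMBP, which binds and helps to store ring subunits, was at 75.2% (-0.41 on the log2 scale, limma unadjusted p = 0.0175 and adjusted p = 0.403). For MCM3AP and MCMBP every NSD2-KD library was below both Ctr-KD libraries (13.9% of all tested genes). MCMDC2 and HELB had mean counts under 10 and were not tested.

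**Figure D5:**
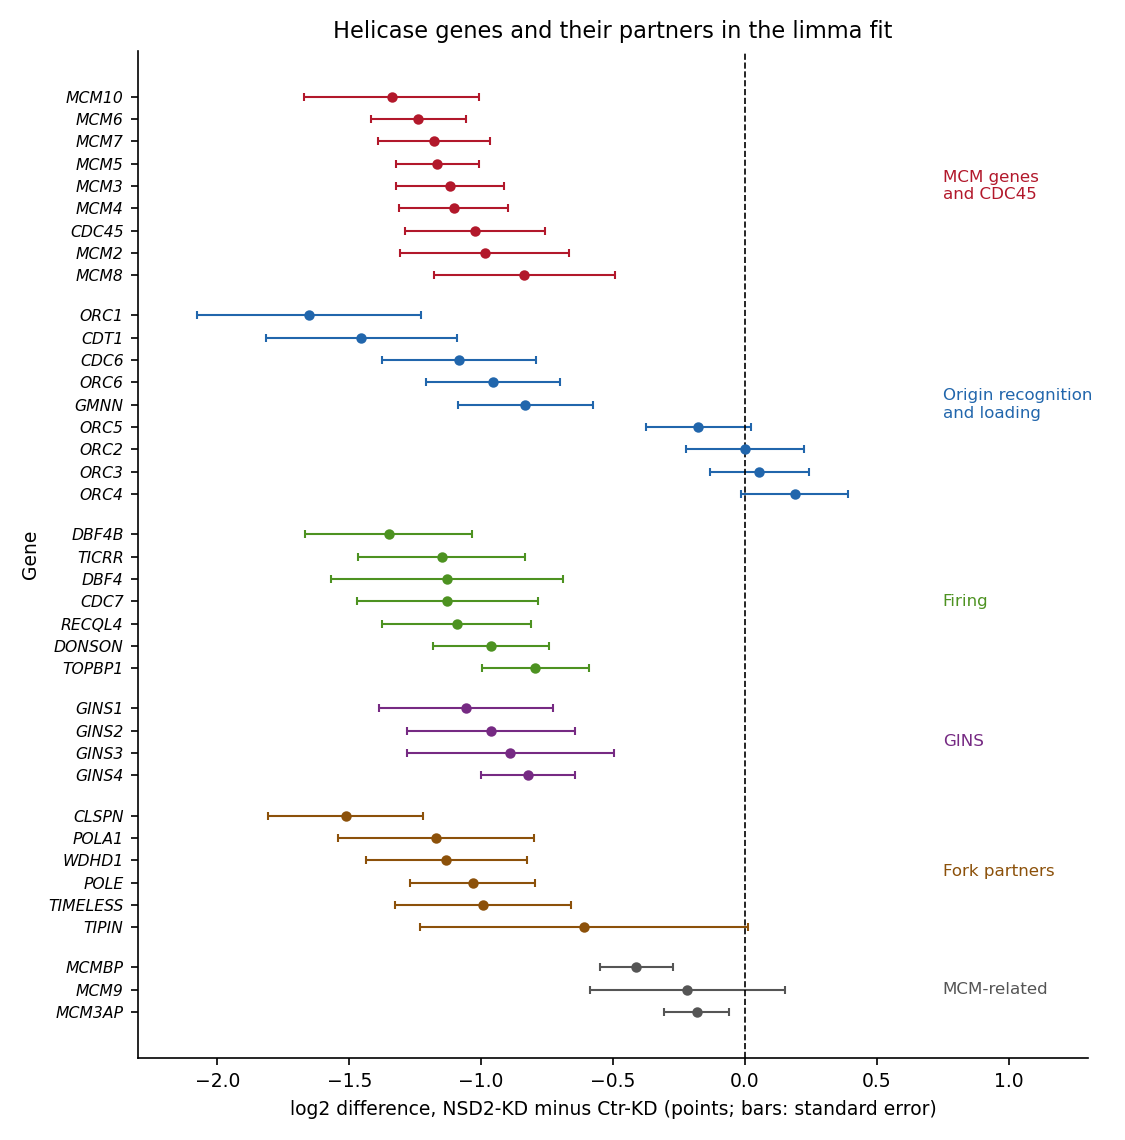
Differences on the log2 scale (horizontal axis, NSD2-KD minus Ctr-KD, with the standard error from limma as bars) of the 9 helicase genes and the 29 tested partner genes, grouped by role. The 9 helicase genes lie between -1.34 and -0.84, and ORC2, ORC3, ORC4 and ORC5 lie near 0.

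The profile of the ring, taken as the mean of the log2 values of MCM2 to MCM7 centred on Ctr-KD, was -1.01 for NSD2-1, -1.50 for NSD2-2 and -0.89 for NSD2-3. Among 7580 other genes whose normalized counts averaged 50 or more, the 5 nearest to it by the root mean square difference over the 5 libraries were CDCA8, DLGAP5, SGOL2, HMMR and CDC20, at distances from 0.0581 to 0.112 (log2 units), where the median gene was at 0.917. These genes are known for roles in mitosis, in the chromosomal passenger complex (CDCA8), the spindle (DLGAP5 and HMMR), cohesin protection (SGOL2) and the anaphase-promoting complex (CDC20). CDCA8 had 109 and 108 normalized counts in the Ctr-KD libraries and 50.6, 39.3 and 55.6 with the 3 siRNAs. The ring subunits themselves were between 0.0622 (MCM4) and 0.253 (MCM2) from their mean, CDC45 was at 0.15, and MCM8 (0.327) and MCM10 (0.362) were farthest.

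Other genes of the cell cycle did not all share this order of siRNAs. PCNA, the sliding clamp of the polymerases, had 222 and 217 normalized counts in the Ctr-KD libraries and 136, 132 and 196 in NSD2-KD cells, which is 70.5% of the Ctr-KD mean. E2F1, a transcription factor of S phase genes, had 53.3 and 75.1 against 23.9, 20.8 and 40.0, and CCNE2, the G1/S cyclin E2, was at 32.8% of the Ctr-KD mean. MKI67, a marker of cycling cells, was left at 51.2%, 23.1% and 11.7% by NSD2-1, NSD2-2 and NSD2-3 (limma adjusted p = 0.259), so its lowest value was with the siRNA that left the most MCM4, MCM5, MCM6 and MCM7. CDKN1A, which encodes the CDK inhibitor p21, was higher with each siRNA, at 131%, 211% and 178% of the Ctr-KD mean in the same order (0.76 on the log2 scale, limma adjusted p = 0.237, DESeq2 adjusted p = 0.0398). The part that the share of cycling cells has in the helicase values was not tested.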

How the data were processed

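IMR-90 mRNA was sequenced in 2 Ctr-KD and 3 NSD2-KD libraries. After trimming, the authors aligned reads to hg19 by HISAT2, kept unique alignments (SAMtools), obtained counts per gene (featureCounts) and divided these by DESeq2 size factors. The deposited signal is this normalized count, and 100% of values were whole multiples of 1 read (tolerance of 0.01 reads). A second deposited table holds the comparison of the authors (fold changes and p-values) and was not used.

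The test was limma 3.58.1 on log2(normalized count + 1), with a trend of variance on mean, over genes averaging 10 or more, without covariates. edgeR 4.0.16, DESeq2 1.42.0 and voom on the recovered reads, other pseudocounts, filters and scalings, a replicate block, Ctr-KD libraries averaged as 1 sample, and leaving out each library were alternatives. The fits were checked on simulated data. Members and lists were chosen with earlier results of these data known. Genes named are the 9 members, NSD2, 5 cell cycle genes set by name, partner genes called by a test or with the largest fall or smallest difference in their group, and the 5 nearest in profile. CDT1, CDC6, CDC7, GMNN, GINS3, ORC3 to ORC6, MCM9, MCMDC2 and HELB were named after their values were seen. Gene models and overlaps are from GENCODE v44 on GRCh37 (the assembly of hg19), and promoters from RefSeq. Intervals are exact (Clopper-Pearson, of the share of reads in 1 of the libraries compared).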

Additional observations from a re-analysis of the deposited data

How the results depend on the processing

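All 9 genes were lower in NSD2-KD cells under each of the 18 alternatives in which they were tested (159 values), with no reversal, and MCM8, MCM10 and CDC45 were left untested where the mean had to reach 50. In 18 of the 159 values the gene passed the threshold, and in 141 it did not. The 141 include the DESeq2 values of MCM10 and CDC45, which had no adjusted p. Without NSD2-2 the log2 difference of MCM8 was -0.49 in place of -0.84 and that of MCM2 -0.64 in place of -0.99. The number of the 9 genes called lower, 0 in the limma fit, was 1 with robust estimation (MCM5), 2 with edgeR, 5 with DESeq2 and 1 with voom. It was 4 without NSD2-3, and 0 without NSD2-1 or without NSD2-2. With the replicate number as a replicate block it was 5 (MCM3 to MCM7). In that fit the NSD2-3 library is alone in its block and adds nothing to the difference, so the log2 differences are those without it. Correlations of deviations between Ctr-KD and NSD2-KD libraries of the same number were -0.015 and -0.027. The Ctr-KD libraries differed by little more than counting error, so these values cannot tell whether libraries of the same number were paired. Over all genes, 6 were called lower and 4 higher. These counts were 1 and 0 without the trend, 11 and 5 with edgeR, 44 and 14 with DESeq2, 84 and 18 with the replicate block, 0 and 0 with the Ctr-KD libraries averaged, 6 and 8 with quantile normalization, and from 0 to 22 and from 0 to 8 when 1 library was left out. They were 0 and 0 without either Ctr-KD library, 10 and 6 without NSD2-1, 4 and 0 without NSD2-2, and 22 and 8 without NSD2-3. Scaling moved the median of all genes by less than 0.1 on the log2 scale. Depth limits MCM8, MCM10 and CDC45 most, with 11 to 74 reads in a library.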
